A study of Mus musculus with 4 samples.

Results

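The 10 genes described here carry bile acids through the liver cell, from synthesis (Cyp7a1, Cyp8b1, Cyp27a1 and Cyp7b1) and conjugation (Slc27a5 and Baat) to export into bile (Abcb11, Abcb4 and Abcc2) and uptake from portal blood (Slc10a1). They were chosen by their known roles, with earlier results of these data known, and found through the RefSeq accession of each array probe. All 10 were among the 31073 genes or accessions measured, 17082 of which had a gene symbol. Livers of C57Bl/6 males, 3 months old and all with a mutant form of Wrn, the helicase lost in Werner syndrome, were compared on 4 arrays with 2 colours. The Cy3 channel of each array held liver RNA of mutants that had drunk water with 0.4% vitamin C from weaning on, and the Cy5 channel that of mutants without treatment. The labels call the 4 samples of each group biological replicates and do not say whether livers were pooled; each sample is called a liver below. Both groups thus share the mutation, and livers with an intact Wrn protein were not analysed here. The mice were kept on a reversed light-dark cycle with free access to food, and the hour of collection is not given in the sources used here.

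Bile acids are made from cholesterol in hepatocytes. The classic route starts with Cyp7a1 and the alternative route with Cyp27a1, and both end in acids that are joined to taurine, pumped into the bile canaliculus and largely recovered from the gut. Returning bile acids activate the nuclear receptor FXR (Nr1h4), which raises the export pumps and, through the repressor SHP (Nr0b2) and the gut hormone Fgf15, holds back Cyp7a1 and Cyp8b1.

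Every value below is a log2 ratio of vitamin C over untreated after loess normalization within the array, unless it is called a log2 signal or a log2 intensity. The labels of the dyes set this direction, which is opposite to the sign of the authors' deposited table, and all directions turn if the dyes were the reverse. Because 0 arrays were dye-swapped, an effect of the dye and an effect of the treatment cannot be told apart. Median spot intensities were 379.5 to 530 in Cy3 and 813 to 962 in Cy5, against 62 to 67 and 66 to 80 on negative controls. Replicate 2 stood apart: over all genes its ratios correlated with those of replicates 1, 3 and 4 at r = 0.020, -0.15 and -0.18, whereas the other pairs of arrays gave 0.60 to 0.78 (across genes, which are not independent replicates). Whether the livers on replicate 2 match their labels could not be checked from these files, and its values below carry that limit. All 10 members were well above background in both channels on all 4 arrays, with mean log2 intensities of 12.5 to 17.2, and 0 spots were saturated. The 6 hepatocyte marker genes measured, Alb and Ttr among them, had log2 intensities of 15.4 to 18.0.

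The bile acid genes were mostly slightly lower in livers of vitamin C-treated mice, and none passed the test. Means were below 0 for 9 of 10 members, against 53.9% of all genes, and the median of the 10 means was -0.14, against -0.015 over all genes. No member had an adjusted p under 0.05 in limma's moderated test with Benjamini-Hochberg adjustment over all genes; the members' adjusted p ran from 0.144 to 0.846. The same fit called 0 of 31073 genes (0%), and 0.144 was also the smallest adjusted p of any gene. At an unadjusted p under 0.05, 4 members were lower (Abcc2, Abcb4, Cyp27a1 and Cyp7b1) and 0 were higher, whereas 16.6% of all genes were lower and 11.2% higher at that level. Among the 3754 genes within the members' range of intensity those shares were 17.1% and 16.4%. The count of 4 became 2 without replicate 3 and 2 with Agilent's processed signals, and a fit of the separate channels called 885 genes, Abcc2 among them.

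At the brightest probes, ratios lay below 0 on all 4 arrays for 3 members, Cyp27a1, Abcb4 and Abcc2, and above 0 on all 4 for 0 members. At dimmer probes, Abcb4 was above 0 on replicate 1, and Baat was below 0 on all 4 arrays. Over all genes 16.1% were below 0 and 14.8% above 0 on all 4 arrays, and within the members' range of intensity 14.9% and 19.8%. The array medians of the 10 members were -0.079, -0.25, -0.21 and -0.38 on replicates 1 to 4, all below 0. The list median kept its sign with any array left out, at -0.23 to -0.16.

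**Figure D1:**
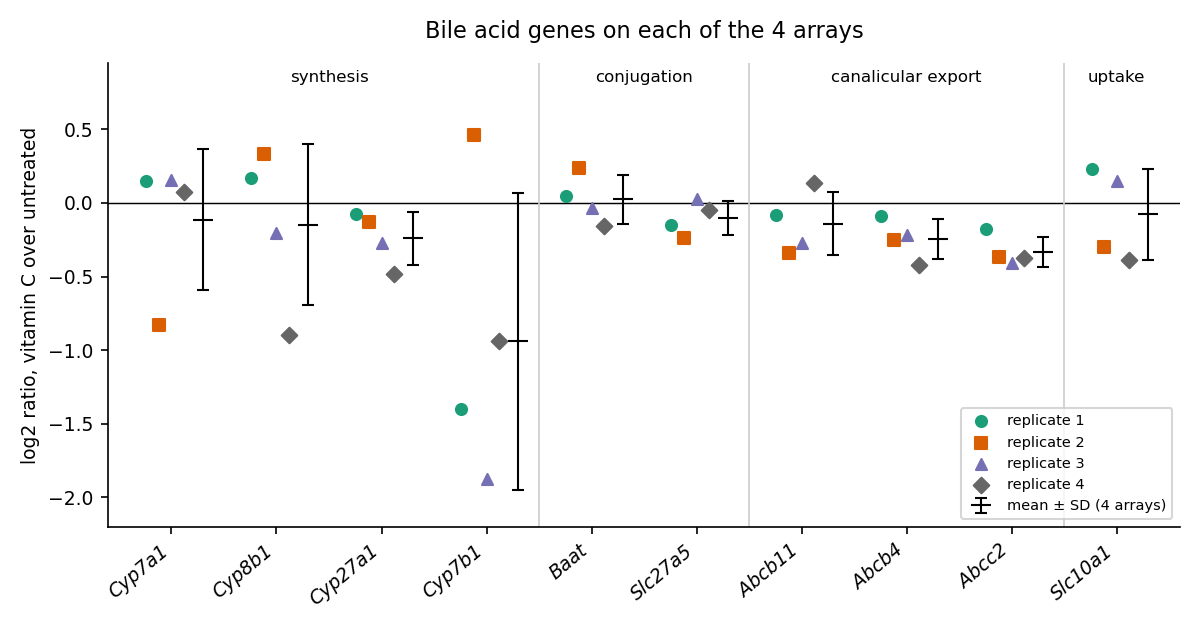
Log2 ratio of vitamin C over untreated (y axis) for each of the 10 genes (x axis, grouped by role), with a symbol for each of the 4 arrays and the mean ± SD beside them. Cyp7b1 spans 2.34 log2 units with replicate 2 alone above 0, whereas the 4 values of Abcc2 lie within 0.23 of each other.

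The largest spread between arrays was among the synthesis enzymes. Cyp7a1, the rate-limiting hydroxylase of the classic route, had ratios of 0.15, -0.83, 0.16 and 0.072 on replicates 1 to 4. Only replicate 2 was low, and the other 3 arrays were slightly above 0. The mean was -0.11 ± 0.48 (SD, n = 4), with a 95% interval of -0.56 to 0.33 (adjusted p = 0.692, limma), and it was 0.13 without replicate 2. The log2 signals place this deviation in the treated liver of replicate 2, at 12.1, where the other treated livers had 13.0, 13.1 and 13.4 and the 4 untreated livers 12.9 to 13.3. A second, dimmer probe of Cyp7a1 had 0.057, -0.30, -0.19 and -0.12, a mean of -0.14 ± 0.15, and also had its lowest ratio on replicate 2. On that array the probes differed by 0.53, and on replicates 3 and 4 they had opposite signs.

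Cyp8b1, the sterol hydroxylase that directs the pathway to cholic acid, had ratios of 0.17, 0.34, -0.20 and -0.90. Replicates 1 and 2 were above 0 and replicates 3 and 4 below it. Its mean of -0.15 ± 0.55 (n = 4, adjusted p = 0.645, limma) turned to 0.10 without replicate 4. The low value came from the treated liver of replicate 4, with a log2 signal of 11.6 against 12.5 to 12.9 in the other treated livers and 12.5 to 12.7 in the untreated ones. At their brightest probes, Cyp7a1 and Cyp8b1 had their low values in different livers. The part of the bile acid feedback in these values was not tested.

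Cyp27a1, the mitochondrial enzyme that oxidizes the sterol side chain and opens the alternative route, had ratios of -0.077, -0.13, -0.27 and -0.48. All 4 arrays were below 0, with a mean of -0.24 ± 0.18 and a fold of 0.847 (95% interval 0.741 to 0.968). The unadjusted p was 0.0232 and the adjusted p 0.151 (limma), so the difference was not called. Without replicate 4 the mean was -0.16, and Agilent's processed signals gave -0.14. The log2 signals were 13.0 to 13.5 in treated and 13.4 to 13.6 in untreated livers, and the groups overlapped.

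Cyp7b1, which hydroxylates oxysterols in the alternative route and is known for higher expression in male than in female mouse liver, had the lowest mean of the 10. Its ratios were -1.40, 0.46, -1.88 and -0.94 on replicates 1 to 4, so 3 arrays were far below 0 and replicate 2 was above it. The mean was -0.94 ± 1.01 (n = 4), a fold of 0.521 with a 95% interval of 0.277 to 0.981, and an adjusted p of 0.175 (limma). Log2 signals were 14.997, 16.01, 14.73 and 15.48 in treated livers and 16.40, 15.55, 16.61 and 16.42 in untreated livers. The untreated liver of replicate 2 was the lowest of its group and the treated liver of replicate 2 the highest of its own, which is where the groups overlapped. Without replicate 2 the mean was -1.41 and passed (adjusted p = 0.0102), in a fit that called 28.2% of all genes, and without replicate 3 it was -0.63. The SD of Cyp7b1 over arrays was larger than that of 99.3% of the genes within the members' range of intensity, where the median SD was 0.14; Cyp8b1 and Cyp7a1 stood at 97.0% and 96.1%.

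**Figure D2:**
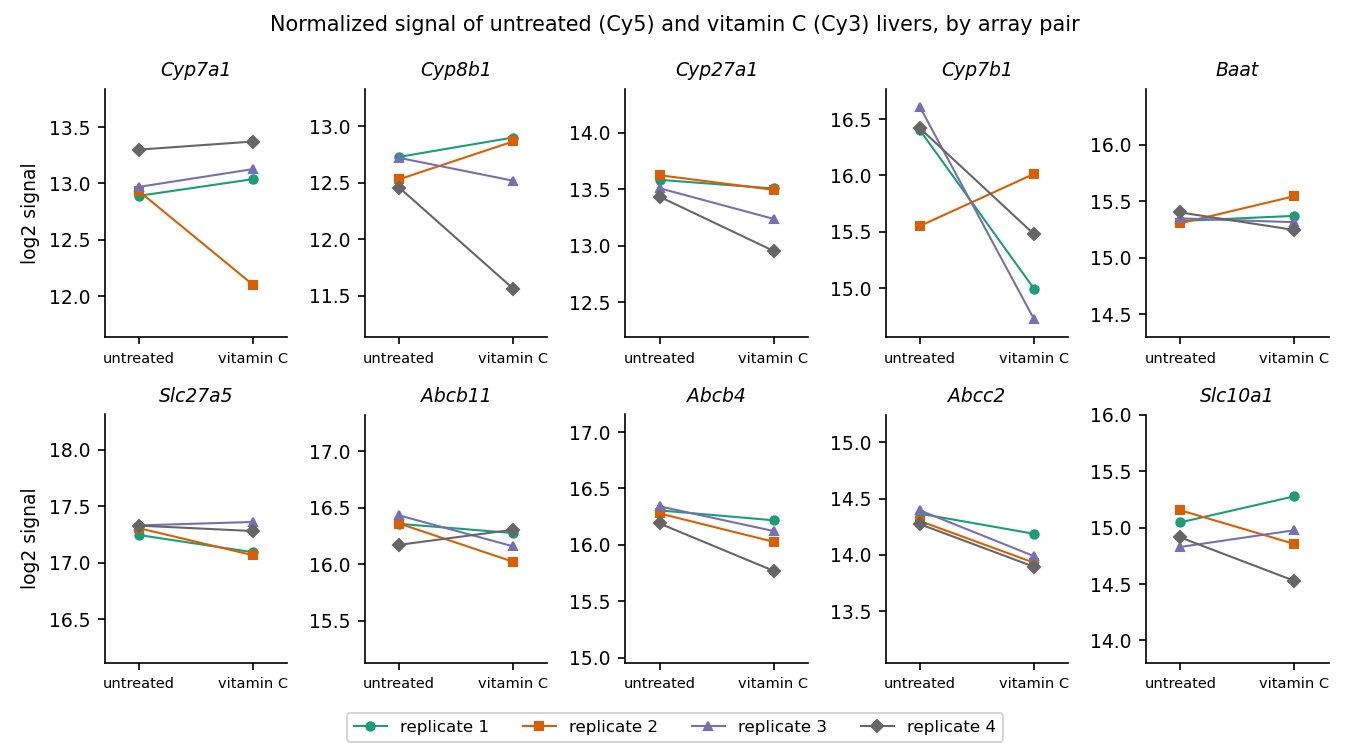
Normalized log2 signal (y axis, 2.2 units in every panel) of the untreated and the vitamin C-treated liver of each array pair, joined by a line, for the 10 genes. Lines of Abcc2 all fall and its groups do not overlap; in Cyp7b1 replicate 2 runs against the other 3 pairs, and in Cyp7a1 and Cyp8b1 a single treated liver lies far below the rest.

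Both conjugation genes had means near 0 at their brightest probes, but the second probe of Baat did not. Slc27a5, the ligase that activates bile acids with coenzyme A, had ratios of -0.15, -0.24, 0.030 and -0.048. Its mean was -0.10 ± 0.12 (n = 4, adjusted p = 0.298, limma), with 3 arrays below 0. It was the brightest member, at a log2 intensity of 17.2, and in the band of log2 intensity from 17 to 18 the median ratio of 147 genes was -0.30. Once a running median over intensity had been taken off, its mean was 0.093. Baat, the transferase that joins the activated acid to taurine or glycine, had ratios of 0.045, 0.24, -0.034 and -0.16, with a mean of 0.024 ± 0.17 and a 95% interval of -0.16 to 0.21. A dimmer probe of Baat had -0.035, -0.038, -0.66 and -0.86, below 0 on all 4 arrays. Its mean was -0.40 ± 0.42 (unadjusted p = 0.0472, adjusted p = 0.180, limma over all probes). The probes lay near each other on replicate 1 and differed by 0.70 on replicate 4, so the direction and size for Baat depend on the probe. The mean over its probes was -0.19.

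All 3 canalicular exporters had means below 0. Abcc2, the pump for conjugated organic anions such as bilirubin glucuronide, had ratios of -0.18, -0.37, -0.41 and -0.38. All 4 arrays were below 0, and replicate 1 was the nearest to it. The mean was -0.33 ± 0.10 (n = 4), a fold of 0.794 with a 95% interval of 0.721 to 0.875. The unadjusted p was 0.00128, the smallest of the 10 members and rank 227 among all genes, and the adjusted p was 0.144 (limma). Log2 signals were 14.2, 13.9, 14.0 and 13.9 in treated livers and 14.4, 14.3, 14.4 and 14.3 in untreated livers. Every treated value lay below every untreated one, which held for no other member and, in either direction, for 7.05% of all genes. With an array left out the mean ran from -0.38 to -0.31. It passed without replicate 2 (adjusted p = 0.0223, where 28.2% of genes passed), in the separate-channel fit (adjusted p = 0.0304, where 2.85% passed) and without loess (adjusted p = 0.0207, where 31.0% passed).

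Abcb4, the floppase that brings phosphatidylcholine into bile, had ratios of -0.088, -0.25, -0.22 and -0.42. The mean was -0.24 ± 0.14 (n = 4), a fold of 0.844 (95% interval 0.755 to 0.944), with an unadjusted p of 0.0103 and an adjusted p of 0.144 (limma), and it was -0.13 with Agilent's processed signals. Log2 signals of treated livers, 15.8 to 16.2, overlapped those of untreated livers, 16.2 to 16.3, through the treated liver of replicate 1. A dimmer probe had 0.082, -0.055, -0.69 and -0.98, above 0 on replicate 1, so the probes differed by up to 0.56. Its mean was -0.41 ± 0.51 (unadjusted p = 0.0716, adjusted p = 0.213, limma over all probes). Abcb11, the bile salt export pump, had ratios of -0.082, -0.34, -0.27 and 0.13. Replicate 4 was above 0 and the other 3 arrays below it, with a mean of -0.14 ± 0.21 (adjusted p = 0.323, limma). That mean was -0.23 without replicate 4, -0.074 without replicate 2 and -0.057 with Agilent's processed signals.

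Slc10a1, the sodium-dependent transporter that takes conjugated bile acids up from blood, had ratios of 0.23, -0.30, 0.15 and -0.38. The arrays fell on both sides of 0, with a mean of -0.076 ± 0.31 (n = 4, adjusted p = 0.691, limma) that became 0.027 without replicate 4. Its 95% interval, -0.37 to 0.22 on the log2 scale, holds changes in both directions.

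Promoter windows are shown for the 3 genes below 0 on all 4 arrays at their brightest probes, and for Cyp8b1, whose window alone held a motif searched. RefSeq's table of 300-base windows, 250 bases before to 50 after the start, on mouse build GRCm38.p6 (not the build of the array design), held 7 windows of 6 members. Cyp7a1, Cyp7b1, Baat and Slc27a5 had no window there, so their promoters were not searched. The 3 motifs searched on both strands were CAAGGTCA, a site of LRH-1 (Nr5a2), GGTCANTGA, a core of the FXR inverted repeat, and CAAAGTCCA, a core of HNF4A sites. Only exact matches were counted, so sites that differ by a base were missed, and capitals mark a match. The windows are chr1:74713285-74713584 (plus strand) for Cyp27a1, chr5:8893471-8893770 (plus strand) for Abcb4, chr19:43782058-43782357 (plus strand) for Abcc2 and chr9:121916256-121916555 (minus strand) for Cyp8b1.
Cyp27a1: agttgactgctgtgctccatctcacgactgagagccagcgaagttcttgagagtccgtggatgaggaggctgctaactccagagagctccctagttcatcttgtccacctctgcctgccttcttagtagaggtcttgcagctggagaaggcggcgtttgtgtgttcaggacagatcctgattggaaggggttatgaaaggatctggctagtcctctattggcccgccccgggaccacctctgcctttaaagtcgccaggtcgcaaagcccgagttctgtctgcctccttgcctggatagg
Abcb4: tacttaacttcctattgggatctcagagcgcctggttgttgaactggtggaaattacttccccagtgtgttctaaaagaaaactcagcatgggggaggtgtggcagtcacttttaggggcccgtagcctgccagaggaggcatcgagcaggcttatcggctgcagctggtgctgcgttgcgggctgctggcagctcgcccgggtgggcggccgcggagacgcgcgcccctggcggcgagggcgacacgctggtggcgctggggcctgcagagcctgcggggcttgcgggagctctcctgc
Abcc2: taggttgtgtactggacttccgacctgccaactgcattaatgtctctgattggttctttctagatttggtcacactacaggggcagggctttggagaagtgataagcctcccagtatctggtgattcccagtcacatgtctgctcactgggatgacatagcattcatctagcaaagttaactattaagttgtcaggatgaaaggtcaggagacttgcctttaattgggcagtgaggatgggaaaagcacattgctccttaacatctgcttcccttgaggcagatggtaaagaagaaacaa
Cyp8b1: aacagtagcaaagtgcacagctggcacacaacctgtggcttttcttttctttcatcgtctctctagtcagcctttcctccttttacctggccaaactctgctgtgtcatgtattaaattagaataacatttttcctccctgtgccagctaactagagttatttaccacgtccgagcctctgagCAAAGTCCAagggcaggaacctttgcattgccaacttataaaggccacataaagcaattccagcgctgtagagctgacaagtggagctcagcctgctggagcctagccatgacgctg

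Of the 7 member windows, 1 held the HNF4A core, 0 the LRH-1 site and 0 the FXR core, against 0.475%, 1.56% and 0.84% of 32851 windows of the same length. The match in Cyp8b1 ran from position -67 to -59 relative to the start. The 3 genes below 0 on all arrays did not share a base composition: GC content was 64% with 21 CG pairs in Abcb4, 55.3% with 10 in Cyp27a1 and 45% with 1 in Abcc2, beside a median of 52.7% and 7 CG pairs over all windows. Such matches describe these letters only and say nothing of binding in these livers.

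Within the 10 genes, each at its brightest probe, the nearest pair over the 4 arrays was Cyp27a1 and Abcb4. The Euclidean distance between their log2 ratios was 0.15, followed by Abcb4 and Abcc2 at 0.24. The farthest pair was Cyp7a1 and Cyp7b1, at 3.04. Of 17072 other genes with a symbol, those nearest to Cyp7a1 were Oat (distance 0.25), Dntt (0.26) and Mbl2 (0.27). Oat, ornithine aminotransferase, had ratios of 0.20, -0.65, 0.11 and 0.23, low on replicate 2 alone like Cyp7a1. Those nearest to Slc10a1 were Rmdn2, Sdha and Galnt4, each at a distance of 0.15. With only 4 arrays these distances are descriptions.

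Treated livers varied more among themselves than untreated livers for every one of the 10 genes: the SD of the 4 log2 signals was 0.13 to 0.62 in treated and 0.040 to 0.47 in untreated livers. The same order held for 66.7% of all genes and for 75.3% of those within the members' range of intensity, so it was common on these arrays. The dye differed with the group throughout, and its part in this spread cannot be told apart.

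Other genes of the bile acid pathway were read from the same fit, in which 0 of 31073 genes passed. Of 15 further synthesis enzymes, 0 passed in either direction, 10 means were below 0 (against 53.9% of all genes) and the median was -0.17. Those with the smallest p were Akr1c6, an aldo-keto reductase, at -0.79 ± 0.24, the sterol carrier gene Scp2 at -0.36 ± 0.11, and Hsd17b4, the bifunctional enzyme of peroxisomal side-chain shortening, at -0.29 ± 0.14 (n = 4, adjusted p = 0.144 each, limma). Akr1c6 had -0.77, -0.52, -0.78 and -1.11 on replicates 1 to 4. Akr1c6 and Scp2 passed in the separate-channel fit (adjusted p = 0.00523 and 0.0237), where 2.85% of genes passed. Without replicate 2, Akr1c6, Scp2 and Hsd17b4 passed (adjusted p = 0.00979, 0.0108 and 0.0470), as did 28.2% of genes. Without loess they passed too (adjusted p = 0.0198, 0.0198 and 0.0207), as did 31.0% of genes. Akr1c6 and Scp2 had log2 intensities of 17.9 and 17.7, in the band with a median of -0.30 over 147 genes, and once a running median over intensity had been taken off, Akr1c6 had -0.15 (unadjusted p = 0.131, adjusted p = 0.288, limma) and Scp2 had 0.030. That step brought the median of the 15 enzymes to -0.034. With Agilent's processed signals Scp2 had -0.059, Hsd17b4 -0.093 and the 15 enzymes a median of -0.059, and without replicate 4 that median was -0.094.

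Further transporters mostly had means above 0. Of 11 measured, 0 passed and 9 means were above 0, whereas 53.9% of all genes had means below 0. The median of the 11 was 0.18, which became 0.11 without replicate 3, 0.0996 without replicate 4 and 0.035 without loess. Abcg5 and Abcg8, the partners of the pump that secretes cholesterol into bile, had means of 0.32 ± 0.29 and 0.26 ± 0.26 (adjusted p = 0.162 and 0.173, limma). Abcg5 had ratios of 0.26, -0.053, 0.42 and 0.65, and Abcg8 had 0.32, -0.11, 0.38 and 0.47, so replicate 2 alone was below 0 for both. Without replicate 2 they had 0.44 (adjusted p = 0.0199) and 0.39 (adjusted p = 0.0104), where 28.2% of all genes passed, and without replicate 4 Abcg5 had 0.21. Abcg2, an efflux pump of the canalicular membrane, was at -0.23 ± 0.22 and below 0 on all 4 arrays (adjusted p = 0.175); it was -0.13 without replicate 4, and the mean of its probes was -0.15. The difference between exporters of the 10 genes and these transporters was not tested.

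**Figure D3:**
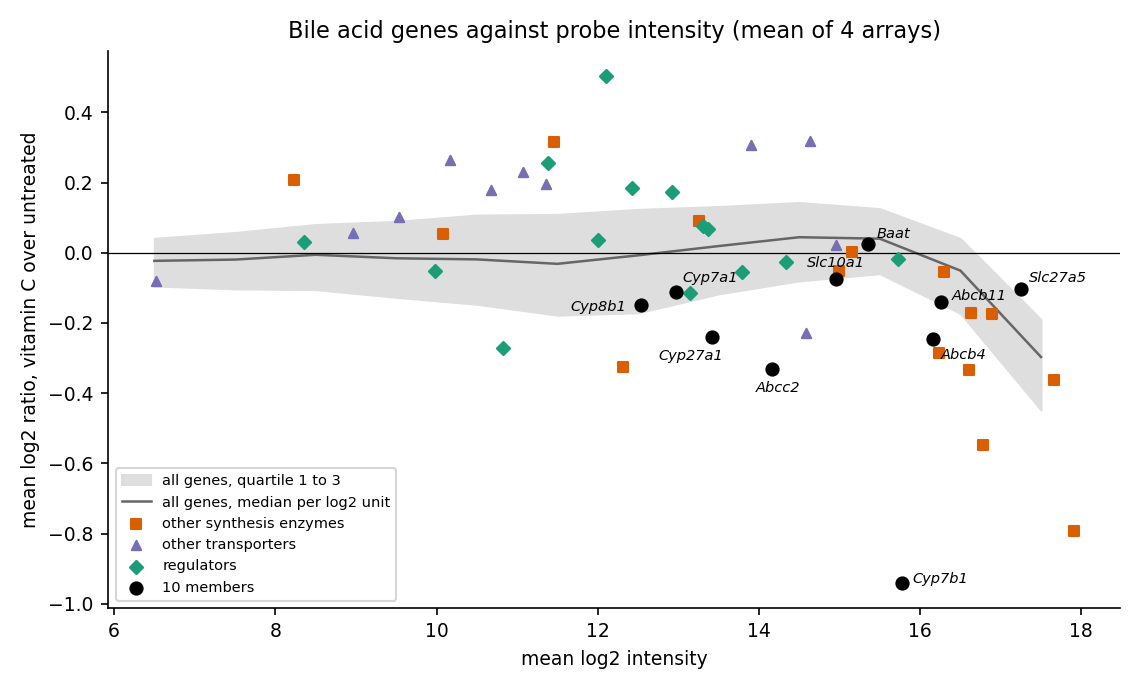
Mean log2 ratio over 4 arrays (y axis) against mean log2 intensity (x axis) for the 10 genes (black, named) and the other bile acid genes, over the median and quartiles of all genes in bands of 1 log2 unit with at least 20 genes. Cyp27a1, Abcc2, Abcb4 and Cyp7b1 have means below the lower quartile of their band, and Slc27a5 has a mean above the upper quartile of its own.

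Regulators of the pathway had a median of 0.034 over 14 measured genes, with 0 past the test. Nr1h4, the bile acid receptor FXR, had 0.19, -0.39, 0.12 and -0.038, a mean of -0.027 ± 0.26, and 0.092 without replicate 2. Nr0b2, the FXR target SHP, had -0.13, -0.45, 0.17 and -0.67 and a mean of -0.27 ± 0.37 (adjusted p = 0.246, limma), with -0.42 without replicate 3 and -0.14 without replicate 4. Fgfr4, the receptor of Fgf15, was at 0.066 ± 0.14, and at -0.0010 without replicate 4. Nr1i2, which encodes the xenobiotic and bile acid sensor PXR, was above 0 on all 4 arrays with 0.38, 0.23, 0.76 and 0.64. Its mean was 0.50 ± 0.24 (adjusted p = 0.144, limma), and it passed without replicate 2 (0.59, adjusted p = 0.0115). Nr1i2 also passed in the separate-channel fit (adjusted p = 0.0301, 2.85% of genes passed) and without loess (adjusted p = 0.0349, 31.0% passed). Nr1h2, an oxysterol receptor gene, was at 0.26 ± 0.18 with 4 of 4 arrays above 0, and at 0.33 with an adjusted p of 0.0227 without replicate 2. In that fit 28.2% of all genes passed.

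Markers of other liver cells were read beside these ratios, since in whole liver fewer cells of a type and less RNA per cell cannot be told apart. Array medians of the 8 cholangiocyte markers were 0.048, 0.041, -0.11 and 0.060, with 4 of 8 means above 0. All 7 Kupffer cell markers measured had means above 0, whereas 53.9% of all genes had means below 0. Their array medians were -0.26, 0.28, 0.065 and 0.49. The summed log2 signal of the Kupffer cell markers was 15.6 to 16.4 in treated and 15.6 to 16.1 in untreated livers. Genes of pericentral hepatocytes, the zone where Cyp7a1 is mainly expressed, had 7 of 7 means below 0, against 53.9% of all genes. Array medians of these genes were 0.038, -0.29, -0.030 and -0.47. At an unadjusted p under 0.05 (limma), 1 of the 7 was lower, as were 16.6% of all genes. Cyp2e1 and Rgn had means of -0.18 and -0.22 at log2 intensities of 17.3 and 17.5, in the band with a median of -0.30 over 147 genes. Periportal genes had array medians of -0.23, -0.18, -0.20 and 0.37 over 6 genes. The 6 hepatocyte markers had 5 means below 0 and a median of -0.20, beside 9 of 10 and -0.14 for the bile acid genes. Array medians of the markers were -0.0043, -0.12, -0.25 and -0.30. Their summed log2 signal was 19.2 to 19.4 in treated and 19.7 in untreated livers. Alb, the brightest of them, had a mean of -0.70 at a log2 intensity of 18.0, where the 6 genes above 18 had a median of -0.63, and Apoa1 and Tat lay in the band with a median of -0.30. Stellate, sinusoidal endothelial and lymphocyte markers had medians of 0.086, 0.12 and 0.094 over 7 genes each. The part of these cell types and zones in the ratios of the 10 genes was not tested.

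**Figure D4:**
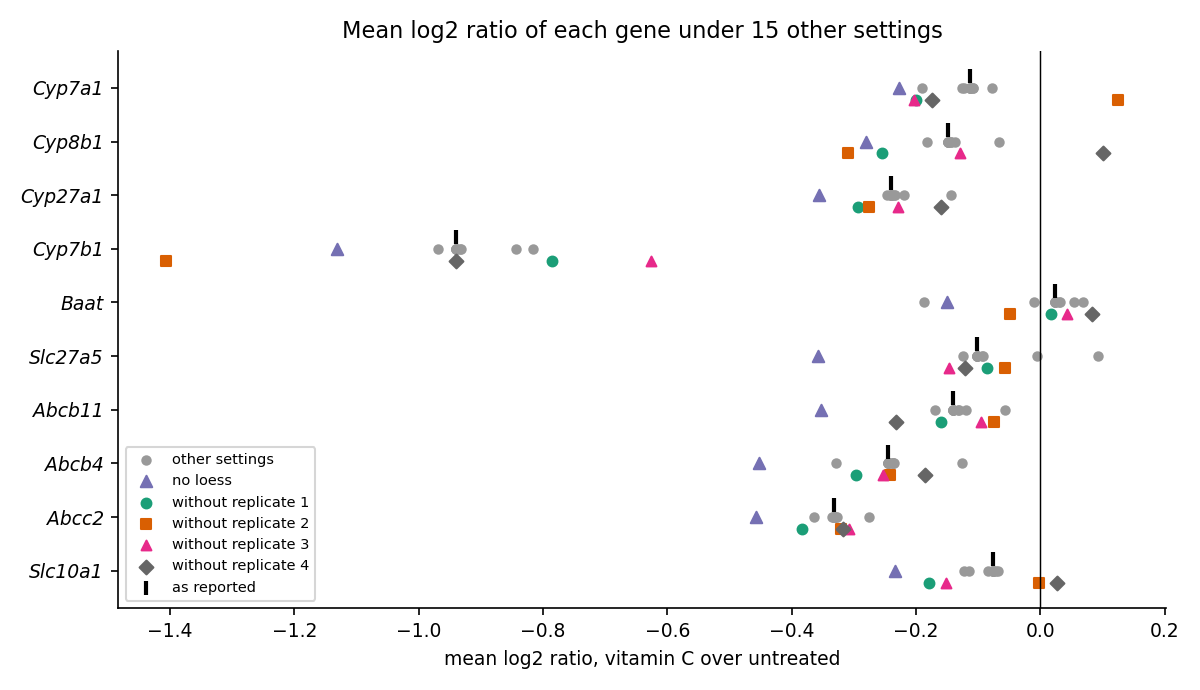
Mean log2 ratio (x axis) of each of the 10 genes (y axis) as reported and under 15 other settings, with the fits that leave out an array and the fit without loess marked. Cyp27a1, Cyp7b1, Abcb11, Abcb4 and Abcc2 stay below 0 in every setting shown, and Cyp7a1, Cyp8b1, Baat, Slc27a5 and Slc10a1 lie on both sides of 0. Settings that change only the background filter, the variance or the channel fit cannot move a mean.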

How the data were processed

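The authors deposited scanner files of spot intensity values, for which the file headers name Feature Extraction 10.5.1.1, and a table of log2 ratios, for which the submitters' processing notes name limma without its steps. The columns of the deposited log2 table correlated with log2 Cy5 over Cy3 of the same arrays at r = 0.950 to 0.980 over 41174 probes, so it runs as untreated over treated; its medians were 0.0014 to 0.0050, and 0 value columns lacked a sample. From median signals and backgrounds, normexp (offset 50) and loess (span 0.3, control spots at weight 0) were applied to each array in limma 3.58.1 with R 4.3.3. Outlier spots were dropped, spots of a probe averaged and probes named by RefSeq accession (25097 of 41174, 61.0%). A gene was its brightest probe, kept if either channel was well above background on 3 of 4 arrays. Log2 signals of single channels were taken after Aquantile normalization. limma tested the 4 ratios against 0. The path was tested on simulated data, with noise drawn separately for each probe and array. The simulated noise lacked the correlation between arrays seen here, so it cannot show how the test behaves under that correlation. An exact sign-flip test of 4 arrays cannot go below p = 0.125 (two-sided), and the number of arrays limits the precision. All arrays lay on 1 slide. Probe sequences were not used here.

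All 10 members were named with their values, with the 3 genes of smallest p of each related list, Nr1h4, Nr0b2, Fgfr4 and the 3 genes nearest to Cyp7a1 and Slc10a1. Members, lists and this rule were chosen with earlier results of these data known.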

Additional observations from a re-analysis of the deposited data

Results flagged for a closer look

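Among 41 groups of 4 values looked at (ratios of the 21 named genes, and treated and untreated signals of the 10 members), 2 had an array far from the others, where chance gives about 5% of such groups. At its brightest probe, Cyp7a1 had a log2 ratio of -0.83 on replicate 2. The gap to the next array was 0.913 of the whole range, above Dixon's critical value for 4 values. The dimmer probe of Cyp7a1, with -0.30 on replicate 2 and -0.19 on replicate 3, was not among the groups looked at. Abcc2 had -0.18 on replicate 1, nearer to 0 than the other 3 arrays, with a gap of 0.839 of the range.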

How the results depend on the processing

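The means of Cyp27a1, Cyp7b1, Abcb11, Abcb4 and Abcc2 kept their sign under all 15 alternatives, but not all of these could turn a sign. Dropping the background filter, requiring both channels above background, the robust variance and the separate-channel fit left every member mean as it was. Averaging probes could move only genes with several probes. Without loess, 9634 genes and 5 members (Cyp27a1, Cyp7b1, Slc27a5, Abcb4 and Abcc2) passed the test, the members' median was -0.35, that of the other synthesis enzymes -0.40 and that of the regulators -0.078, with Baat at -0.15 and Fgfr4 at -0.048. The separate-channel fit called 885 genes and 1 member. After a running median over intensity had been removed, the other synthesis enzymes had a median of -0.034, Baat -0.0096, Slc27a5 0.093, Scp2 0.030 and Akr1c6 -0.15; the mean of its probes gave Baat -0.19. Agilent's processed signals left 2 members lower at an unadjusted p under 0.05, where 10.9% of all genes were lower. Scp2 was then at -0.059 and Hsd17b4 at -0.093. With an array left out, 0 to 8753 genes and 0 to 2 members passed (the higher counts without replicate 2). At an unadjusted p under 0.05, 3, 4, 2 and 3 members were lower without replicates 1 to 4. The shares of all genes lower there were 6.44%, 25.2%, 4.98% and 6.94%. Without replicate 2, 1 member (Cyp7a1) was higher at that level, as were 18.5% of all genes. Means ran from -0.20 to 0.13 for Cyp7a1, -0.31 to 0.10 for Cyp8b1 and -0.048 to 0.084 for Baat. They ran from -0.18 to 0.027 for Slc10a1, -0.0010 to 0.10 for Fgfr4 and -0.10 to 0.092 for Nr1h4. The cause of these changes was not tested. No paired analysis was possible beyond the array itself, because each array already holds 1 treated and 1 untreated liver as a ratio. The 15 alternatives included the authors' deposited table, which changed no call or sign of a member.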

Other observations

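The dimmer probes of Baat and Abcb4 had much the same profile as each other and not that of their own gene's brighter probe: -0.035, -0.038, -0.66 and -0.86 for Baat and 0.082, -0.055, -0.69 and -0.98 for Abcb4 on replicates 1 to 4. Their log2 intensities were 12.8 and 11.9, against 15.4 and 16.2 for the brighter probes. Over all genes, replicates 3 and 4 correlated at r = 0.78. The SD of all ratios was 0.29 and 0.31 on replicates 3 and 4, against 0.22 and 0.17 on replicates 1 and 2. How many other probes had such a profile was not counted. The dimmer probe of Cyp7a1 had its lowest ratio on replicate 2, as the brighter probe did. On replicates 3 and 4 it had -0.19 and -0.12, where the brighter probe had 0.16 and 0.072.

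The genes nearest to Cyp7b1 over the 4 arrays, looked up after its values had been seen, were Gstp1, a glutathione transferase (distance 0.44), Selenbp1, a selenium-binding protein (0.85), and Olfr166 (0.88). Gstp1 had ratios of -1.60, 0.070, -1.96 and -0.94, so its replicates 1, 3 and 4 were low and replicate 2 was near 0. Selenbp1 had -1.12, 0.090, -1.23 and -0.65. The olfactory receptor probe Olfr166 had -0.91, 0.29, -1.44 and -1.49 at a log2 intensity of 14.1.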
